A study of Mus musculus with 21 samples.

Results

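The genes described here are the tumour necrosis factor (TNF) ligand and receptor superfamilies as measured in kidney RNA. They were found by symbol (Tnf, Lta, Cd40, Cd40lg, Fas, and Tnfsf or Tnfrsf followed by a number), which gave 37 of the 20634 genes held by both count tables: 14 ligands, 22 receptors and Tnfsf13os, an antisense transcript that carries a matching name. Family genes with other names, such as Ltb or Ngfr, are not caught by that rule and are given as a separate list.

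Kidney RNA-seq was available for 5 Con, 6 Ade and 6 Ade + IMC mice. All were female apolipoprotein E knockout (apoE KO) mice on a C57BL/6J background, which are hypercholesterolemic without any diet change, so the knockout is shared by the control group. They were 4 weeks old at the start, ate their diet for 14 weeks and were 18 weeks old at collection. Con mice ate chow, Ade mice chow with 0.2% adenine, a purine that injures the renal tubules, and Ade + IMC mice the adenine chow with 0.06% iodomethylcholine (IMC), an inhibitor of the bacterial enzyme that makes trimethylamine from choline. The first comparison asks what adenine feeding did to these genes, and the second whether IMC altered that.

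Most members of the ligand family are membrane proteins that act as trimers, some after being cut free from the cell surface, and they engage receptors that cluster on the target cell. Receptors with an intracellular death domain can recruit caspase-activating complexes, whereas the others recruit TRAF adaptors that feed the NF-κB pathway, and decoy receptors bind ligand without passing on a full signal. In the kidney, TNF and its receptors are studied as mediators of tubular injury and inflammation, and several other members direct the survival and costimulation of B and T lymphocytes.

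Total counts per mouse were 7716126 to 11680809 in Con, 5444833 to 7673215 in Ade and 5728589 to 8305968 in Ade + IMC. Levels are given as CPM, the read count scaled to a common library total, and a level below 1 CPM rests on few reads at these depths. The kidney origin was visible in every group: the summed level of 5 proximal tubule markers was 9524 to 14501 CPM in Con, 1367 to 5603 in Ade and 2291 to 4655 in Ade + IMC. The summed level of 8 macrophage markers was 215 to 256 CPM in Con, 1450 to 2376 in Ade and 1311 to 2210 in Ade + IMC. Mouse 311 of the Ade + IMC group stood apart, with a B cell marker sum of 453 CPM where the other Ade + IMC mice had 17.9 to 94.8 and the Con mice 3.27 to 5.28. Mouse 308 had the highest B cell sum of the Ade group at 196 CPM, the others having 29.8 to 84.5. T cell marker sums were 6.77 to 12.8 CPM in Con, 48.9 to 175 in Ade and 52.1 to 253 in Ade + IMC, with mice 308 and 311 again at the top. Because whole kidney was sequenced, fewer cells of a type and less RNA per cell cannot be told apart, and the part of these infiltrating and tubular cells in the results for the family was not tested.

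The 250 bases before the RefSeq start (GRCm38.p6) were on hand for 27 of the 37 members, in 31 windows. Windows of 5 members that the results return to are shown: the genes for TNF and LIGHT, 2 receptor genes that rose (Tnfrsf25 and Tnfrsf12a), and Tnfrsf21, the only member called lower. They are written 5′ to 3′ on the strand of the gene, with the letters matched by a motif in capitals. The Tnf window lies at chr17:35202008-35202257 on the minus strand, Tnfsf14 at chr17:57194182-57194431 on the minus strand, Tnfrsf25 at chr4:152115684-152115933 on the plus strand, Tnfrsf12a at chr17:23677469-23677699 on the minus strand (19 bases inside an annotated exon left off) and Tnfrsf21 at chr17:43016305-43016554 on the plus strand.
Tnf: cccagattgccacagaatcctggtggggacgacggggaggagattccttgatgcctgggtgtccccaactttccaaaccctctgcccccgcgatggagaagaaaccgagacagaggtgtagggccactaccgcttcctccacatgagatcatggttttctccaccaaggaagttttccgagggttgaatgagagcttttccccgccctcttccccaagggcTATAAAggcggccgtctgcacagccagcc
Tnfsf14: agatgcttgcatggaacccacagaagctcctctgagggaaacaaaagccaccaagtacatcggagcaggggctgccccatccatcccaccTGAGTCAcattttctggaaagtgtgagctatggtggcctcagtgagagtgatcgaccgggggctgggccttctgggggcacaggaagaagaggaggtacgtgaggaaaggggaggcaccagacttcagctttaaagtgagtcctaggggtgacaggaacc
Tnfrsf25: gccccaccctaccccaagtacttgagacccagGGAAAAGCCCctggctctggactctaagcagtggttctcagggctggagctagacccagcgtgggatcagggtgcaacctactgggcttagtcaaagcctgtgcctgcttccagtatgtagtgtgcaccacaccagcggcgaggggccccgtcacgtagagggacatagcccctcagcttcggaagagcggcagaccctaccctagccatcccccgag
Tnfrsf12a: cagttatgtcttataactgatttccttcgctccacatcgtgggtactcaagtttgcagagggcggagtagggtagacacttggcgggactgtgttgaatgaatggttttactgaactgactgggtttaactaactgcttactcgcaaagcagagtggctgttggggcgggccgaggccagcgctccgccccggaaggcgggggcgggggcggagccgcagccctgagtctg
Tnfrsf21: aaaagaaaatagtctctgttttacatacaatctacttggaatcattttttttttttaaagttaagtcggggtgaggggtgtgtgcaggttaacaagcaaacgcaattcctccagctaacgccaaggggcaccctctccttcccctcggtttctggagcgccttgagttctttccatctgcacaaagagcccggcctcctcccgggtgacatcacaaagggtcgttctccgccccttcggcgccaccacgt
Capitals mark TATAAA in Tnf, 29 to 24 bases before the start, the AP-1 motif TGANTCA in Tnfsf14, 160 to 154 bases before it, and the κB motif (GGG and TTCC with any 3 bases between them), read on the opposite strand, in Tnfrsf25, 218 to 209 bases before it. No letters are capitalised in the Tnfrsf12a and Tnfrsf21 windows.

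Each motif was searched on both strands, and the motifs did not overlap in any member window. The κB letters were found in 2 members, Tnfrsf25 and a second start of Tnfrsf9, that is in 6.45% of the 31 windows against 4.65% of all 32851 windows. The AP-1 letters were found in 6 members (Fas, Tnfrsf8, Tnfrsf9, Tnfsf13, Tnfsf13b and Tnfsf14), in 19.4% of the member windows against 6.75% of all windows. TATAAA was found in 6 members (Lta, Tnf, Tnfrsf17, Tnfrsf23, Tnfsf11 and Tnfsf18), in 19.4% against 12.4%. Of these matches, 3 for AP-1 (Tnfrsf9, Tnfsf13 and Tnfsf13b) and 1 for κB (Tnfrsf9) lie in an annotated exon of the gene. These are matches of letters in a short window and not sites shown to be bound.

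Adenine feeding was accompanied by higher transcript levels across most of the family. Of the 37 members, 32 had enough reads for edgeR's quasi-likelihood test between Ade and Con, and 27 were called higher in Ade, at an adjusted p below 0.1 by Benjamini and Hochberg over 14612 genes, where 35.1% of all genes tested were called higher. Only Tnfrsf21 was called lower, where 32.2% of all genes tested were. Tnfsf10, Tnfsf13, Tnfrsf22 and Tnfsf13os were not called. Cd40lg, Tnfrsf17, Tnfsf4, Tnfsf11 and Tnfsf18 did not pass the filter on low counts and were not tested.

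The count needs care, because the filter asks for about 1.3 CPM in 5 mice and 15 of the 32 tested members did not reach that in the Con mice alone, so that they entered the test through their Ade reads. They were Lta, Tnf, Tnfrsf4, Tnfrsf8, Tnfrsf9, Tnfrsf11b, Tnfrsf13b, Tnfrsf13c, Tnfrsf19, Tnfrsf22, Tnfsf8, Tnfsf9, Tnfsf13b, Tnfsf13os and Tnfsf14, of which 13 were called higher. Of the 17 members that the Con mice carried alone, 14 were called higher and 1 lower, where 30.4% and 36.1% of the 12848 genes of that kind were. Without a filter on low counts all 37 members entered the fit, of which 30 were called higher and 1 lower. In that fit 6123 of all 21004 genes were called higher and 5175 lower. Over the 37 members, the values of every Ade mouse lay above those of every Con mouse in 22 and below in 1. Among the 32 tested these were 19 and 1, against 22.4% and 20.6% of all genes tested. Among the 19, Lta, Tnf, Tnfrsf4, Tnfrsf9, Tnfrsf13b, Tnfrsf13c, Tnfsf8, Tnfsf9, Tnfsf13b and Tnfsf14 entered the test through their Ade reads. The median log2 fold change was 1.40 over the 32 tested members and 0.02 over all genes tested. That median includes the 15 members that entered through their Ade reads and was not taken without them.

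Among the ligands, 8 of the 10 tested were called higher in Ade, beside 35.1% of all genes tested. Of the 10, 6 (Lta, Tnf, Tnfsf8, Tnfsf9, Tnfsf13b and Tnfsf14) entered the test through their Ade reads. Of the other 4, 2 were called higher, beside 30.4% of the genes that the Con mice carried alone. Tnf (ENSMUSG00000024401, GRCm38 chromosome 17 from 35199381 to 35202007 on the minus strand) encodes the founding cytokine of the family. The Con mice had 0.505, 0.433, 0.813, 0.779 and 0.523 CPM, and the Ade mice had a lowest value of 3.38, a median of 6.98 and a highest of 8.85 CPM. The groups did not overlap, and the fold change was 10.8 (log2 3.43, standard error 0.30, edgeR adjusted p = 7.19e-07). Lta, its neighbour on chromosome 17, encodes lymphotoxin alpha, a lymphocyte product that binds the same receptors. Its Con values were 0.303, 0, 0.135, 0.130 and 0.523 CPM, 9 reads in all, and the Ade values ran from 1.12 through a median of 1.85 to 4.85 CPM in mouse 308. Here too no Ade mouse overlapped a Con mouse, and the log2 fold change was 3.22 (standard error 0.56, edgeR adjusted p = 0.000231). The ratio of summed reads was 11.8, with a counting interval of 5.94 to 26.5.

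Tnfsf8, the CD30 ligand of activated lymphocytes, had the largest fitted rise of the family. The Con values were 0.101, 0.289, 0.271, 0.649 and 0 CPM, whereas the Ade values ran from 7.17 through a median of 11.3 to 19.0 CPM. The log2 fold change was 5.55 (standard error 0.47, edgeR adjusted p = 5.55e-07), and it was 6.19 without mouse 302, which held 5 of the Con reads. As only 10 reads were counted over the 5 Con mice against 559 in Ade, the ratio of summed reads was 60.3 with an interval of 32.6 to 127. Per kilobase of exon its mean level in Ade was 3.29 CPM, beside 4.04 CPM for Tnf.

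Tnfsf13b encodes BAFF, a survival factor for B cells made mainly by myeloid and stromal cells. It stood at 1.01, 1.16, 2.03, 1.43 and 1.18 CPM in Con and at 7.37 to 14.2 CPM in Ade, with a median of 11.8. The fold change was 8.21 (log2 3.04, standard error 0.25, edgeR adjusted p = 4.59e-07), with no overlap. Tnfsf14 encodes LIGHT, a ligand of the lymphotoxin beta receptor and of HVEM. It stood at 0.505, 0, 0.135, 0.260 and 0.392 CPM in Con and at 1.53 to 3.84 CPM in Ade, with a median of 2.14 (log2 fold change 3.0, standard error 0.43, edgeR adjusted p = 5.36e-05). Tnfsf9 (4-1BB ligand) was called higher at a log2 fold change of 1.62 without overlap, and Tnfsf15 (TL1A) at 0.83 with overlap.

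The more abundant ligands, Tnfsf12 and Tnfsf10, differed little. Tnfsf12 encodes TWEAK, the ligand of Fn14, and had 22.3, 20.5, 21.9, 24.7 and 30.7 CPM in Con. In Ade it had 25.4 to 35.8 CPM with a median of 33.1, so the groups overlapped, and the rise was 1.35-fold (log2 0.43, standard error 0.12, edgeR adjusted p = 0.00604). This value is uncertain, because the readthrough gene Tnfsfm13 covers 731 of its 1515 exonic bases on the same strand. Tnfsf10 encodes TRAIL, an apoptosis-inducing ligand. It had 99.7, 97.3, 77.9, 76.6 and 60.4 CPM in Con and 75.9 to 92.1 CPM in Ade with a median of 81.2, so the Ade values lay inside the Con range. Its log2 fold change was 0.04 (standard error 0.12, edgeR adjusted p = 0.798). Tnfsf13 (APRIL) had 1.61 to 3.03 CPM in Con and 1.62 to 2.73 CPM in Ade, and the readthrough gene Tnfsfm13 covers 983 of its 1637 exonic bases on the same strand.

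The remaining ligands lay near the floor of the data. Cd40lg, the CD40 ligand of activated T cells, had 0.202, 0.144, 0, 0.260 and 0 CPM in Con and 0.381 to 2.17 CPM in Ade with a median of 0.967. The ratio of summed reads was 10.8 (interval 4.33 to 34.7), from 5 reads in Con and 50 in Ade, and the groups did not overlap. Tnfsf11 encodes RANKL, known for driving osteoclast formation. It had 2 reads in Con, both in mouse 302, and 0.381 to 4.51 CPM in Ade with a median of 1.40, for a ratio of 41.0 (interval 11 to 345). Tnfsf4 (OX40 ligand) had no read in any Con mouse and 13 reads over the Ade mice. That is 4.68-fold higher when Con is set to 3 reads over the group, and the lower 95% counting limit for the ratio was 3.29. Tnfsf18 (GITR ligand) had 4 reads in Con and 6 in Ade.

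**Figure D1:**
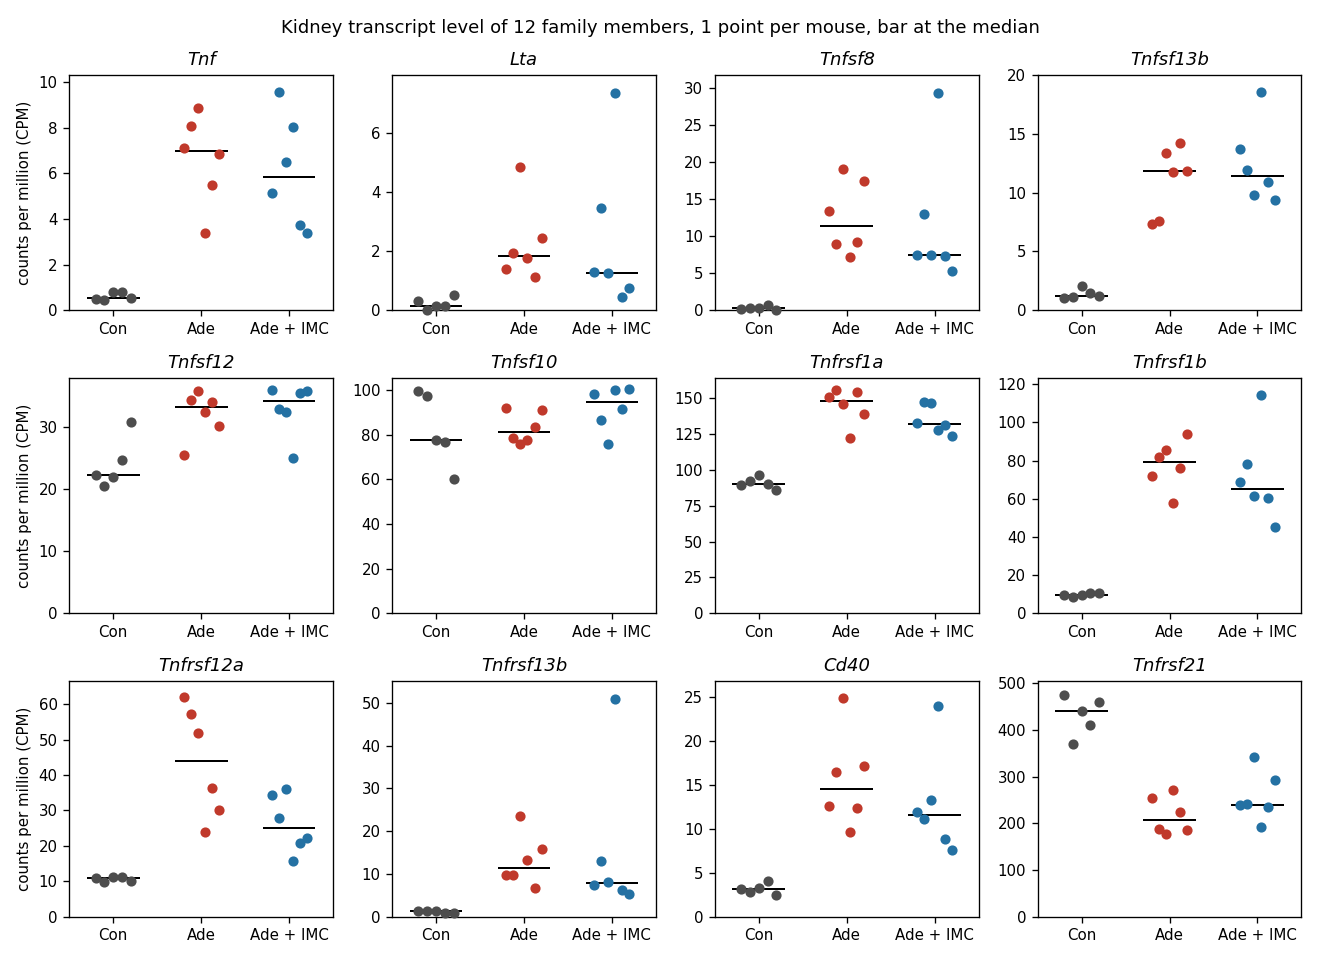
Kidney level of 12 family members in CPM, on linear axes from 0. Each point is a mouse and the bar is the group median. Tnf, Tnfsf8, Tnfsf13b, Tnfrsf1b and Cd40 are low in Con and lie above every Con value in both adenine-fed groups, Tnfsf10 lies in the same range throughout, and Tnfrsf21 falls from 371 to 475 CPM in Con to 176 to 272 CPM in Ade.

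The 5 receptors with a death domain were all carried by the Con mice alone. Of these, 4 were called higher and 1 lower, beside 30.4% and 36.1% of all genes of that kind. Tnfrsf1a encodes TNF receptor 1, through which soluble TNF signals. It had 89.3, 92.0, 96.6, 90.4 and 85.8 CPM in Con and 122 to 156 CPM in Ade with a median of 148. The rise was 1.62-fold (log2 0.70, standard error 0.08, edgeR adjusted p = 6.81e-06), small beside that of its ligand, but no Ade mouse came down to the Con range. Fas, the death receptor for Fas ligand, had 8.38, 15.2, 11.8, 8.18 and 9.02 CPM in Con and 12.8 to 22.1 CPM in Ade with a median of 15.4. Its groups overlapped through mouse 202 of the Con group, and the rise was 1.55-fold (log2 0.63, standard error 0.19, edgeR adjusted p = 0.0114).

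Tnfrsf10b encodes the mouse TRAIL receptor, a target of p53. It had 3.43, 5.49, 3.66, 3.38 and 4.31 CPM in Con and 5.95 to 10.9 CPM in Ade with a median of 7.30, without overlap (1.94-fold, log2 0.96, standard error 0.20, edgeR adjusted p = 0.000882). Its ligand Tnfsf10 did not pass the test in either direction. Tnfrsf25 (DR3, the receptor of TL1A) rose by 0.92 on the log2 scale with overlapping groups.

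Tnfrsf21 encodes DR6, a death-domain receptor studied in neurons and T cells, and moved the other way. It was the most abundant member in Con per kilobase of exon, at a mean of 105 CPM beside 35.1 CPM for Tnfrsf1a. The Con mice had 475, 371, 442, 410 and 460 CPM, and the Ade mice 176 to 272 CPM with a median of 206. The groups did not overlap, and the level in Con was 1.96 times that in Ade (log2 fold change -0.97, standard error 0.12, edgeR adjusted p = 1.86e-05). Proximal tubule markers fell in the same mice, with 5 of 5 called lower, beside 32.2% of all genes tested. Called lower too were 2 of 2 collecting duct, 1 of 2 thick ascending limb, 3 of 5 endothelial and 0 of 4 podocyte markers. The part of these cells in the Tnfrsf21 value was not tested. Per kilobase of exon the means of Tnfrsf21 and Tnfrsf1a in Ade were 52.7 and 55.9 CPM.

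Among the 4 decoy receptors, 3 were called higher, beside 35.1% of all genes tested, and Tnfrsf11b and Tnfrsf22 entered the test through their Ade reads. Tnfrsf11b encodes osteoprotegerin, a soluble decoy for RANKL and TRAIL. It had 1.31, 1.01, 1.35, 1.04 and 0.784 CPM in Con and 1.08 to 3.10 CPM in Ade with a median of 2.36, and the groups overlapped through mouse 407 of the Ade group (log2 fold change 1.06, standard error 0.27, edgeR adjusted p = 0.00436). Tnfrsf23 and Tnfrsf26, mouse decoys that lie near Tnfrsf22 on chromosome 7, rose by 1.29 and 0.75 on the log2 scale, whereas Tnfrsf22 was at 0.16 (standard error 0.34, edgeR adjusted p = 0.695). Tnfrsf23 and Tnfrsf26 each share exonic bases with a gene on the opposite strand, as do Tnfrsf18 (414 of 1524 bases) and Tnfsf9 (192 of 1290), and the use of strand in the counting is not given in the sources used here.

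The other receptors, which recruit TRAF adaptors, followed: 12 of the 13 were tested and 12 were called higher, beside 35.1% of all genes tested. Of the 12, 6 (Tnfrsf4, Tnfrsf8, Tnfrsf9, Tnfrsf13b, Tnfrsf13c and Tnfrsf19) entered the test through their Ade reads. Tnfrsf1b encodes TNF receptor 2, which is carried mainly by leukocytes and endothelium. It had 9.79, 8.52, 9.62, 10.7 and 10.8 CPM in Con and 57.6 to 93.9 CPM in Ade with a median of 79.3, far apart (8.0-fold, log2 3.0, standard error 0.13, edgeR adjusted p = 2.85e-09). Per kilobase of exon, its mean level was 2.59 CPM in Con and 20.4 in Ade, where that of Tnfrsf1a went from 35.1 to 55.9. The proportion between the receptors therefore differed between the diets, although Tnfrsf1a had the higher mean per kilobase in both.

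Tnfrsf12a encodes Fn14, the TWEAK receptor, which is known to be induced in injured epithelium. It had 10.8, 9.67, 11.2, 11.3 and 9.93 CPM in Con and 23.8 to 62.0 CPM in Ade with a median of 44.1, a 4.18-fold rise without overlap (log2 2.06, standard error 0.24, edgeR adjusted p = 7.48e-06). The lowest Ade value was that of mouse 407 and the highest that of mouse 207. The summed level of 4 injured tubule markers was 21.7 to 28.0 CPM in Con and 393 to 1287 CPM in Ade, lowest in mouse 407, and its part in the Tnfrsf12a values was not tested. Cd40, a receptor of B cells, macrophages and activated epithelium, had 3.13, 2.74, 3.25, 4.03 and 2.48 CPM in Con and 9.60 to 24.9 CPM in Ade with a median of 14.5 (5.01-fold, log2 2.32, standard error 0.25, edgeR adjusted p = 3.97e-06).

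Of the 3 receptors of BAFF and its relatives, Tnfrsf13b and Tnfrsf13c were called higher, beside 35.1% of all genes tested. Both entered the test through their Ade reads. Tnfrsf13b (TACI) had 1.21, 1.30, 1.22, 0.779 and 0.784 CPM in Con and 6.61 to 23.6 CPM in Ade with a median of 11.5 (12.3-fold, log2 3.62, standard error 0.35, edgeR adjusted p = 1.85e-06). Tnfrsf13c (the BAFF receptor, carried by mature B cells) had 0.101, 0, 0, 0.130 and 0.131 CPM in Con, 3 reads in all, and 1.25 to 9.52 CPM in Ade with a median of 2.89. Its ratio of summed reads was 56.1 with an interval of 18.9 to 275, so its size is poorly fixed. Tnfrsf17 (BCMA, carried by plasma cells) was too low to test, at 0 to 0.677 CPM in Con and 0 to 2.34 CPM in Ade.

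Tnfrsf9 (4-1BB), a costimulatory receptor of T cells, had 0, 0.289, 0.135, 0.39 and 0.131 CPM in Con, 7 reads in all, and 2.84 to 5.81 CPM in Ade with a median of 4.40 (log2 fold change 4.52, standard error 0.42, edgeR adjusted p = 1.14e-06). Tnfrsf4 (OX40) had 0.908, 0.722, 1.35, 0.649 and 1.31 CPM in Con and 3.65 to 9.19 CPM in Ade with a median of 5.41 (log2 fold change 2.51, standard error 0.29, edgeR adjusted p = 7.81e-06). Neither overlapped between the groups. Tnfrsf8 (CD30), Tnfrsf14 (HVEM) and Tnfrsf18 (GITR) were called higher at log2 fold changes of 2.03, 1.52 and 1.0, and Tnfrsf8 overlapped. Without mouse 301 the log2 fold change of Tnfrsf8 was 2.63. In 6 of 6 T cell markers, 6 of 6 B cell markers and 8 of 8 macrophage markers the level was called higher in Ade, beside 35.1% of all genes tested. The same held for 4 of 4 plasma cell, 3 of 3 neutrophil, 4 of 4 dendritic cell, 4 of 4 fibroblast and 4 of 4 injured tubule markers tested. How many of these markers entered the test through their Ade reads was not counted.

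Tnfrsf11a encodes RANK, the receptor of RANKL. It had 8.78, 5.78, 5.01, 5.59 and 5.36 CPM in Con and 12.6 to 21.1 CPM in Ade with a median of 16.8 (2.82-fold, log2 1.5, standard error 0.17, edgeR adjusted p = 7.91e-06), without overlap. Ligand, receptor and decoy of this system, Tnfsf11, Tnfrsf11a and Tnfrsf11b, were thus at 0, 5.59 and 1.04 CPM as Con medians and at 1.40, 16.8 and 2.36 CPM as Ade medians. Tnfrsf19 (TROY), an epithelial member without a known ligand of the family, had 2.42, 4.48, 5.69, 0.649 and 1.57 CPM in Con and 4.19 to 8.01 CPM in Ade with a median of 5.60. It overlapped, and its call was the weakest of the 28 (log2 fold change 0.98, standard error 0.39, edgeR adjusted p = 0.0413). In a fit over all 3 groups its adjusted p was 0.118.

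**Figure D2:**
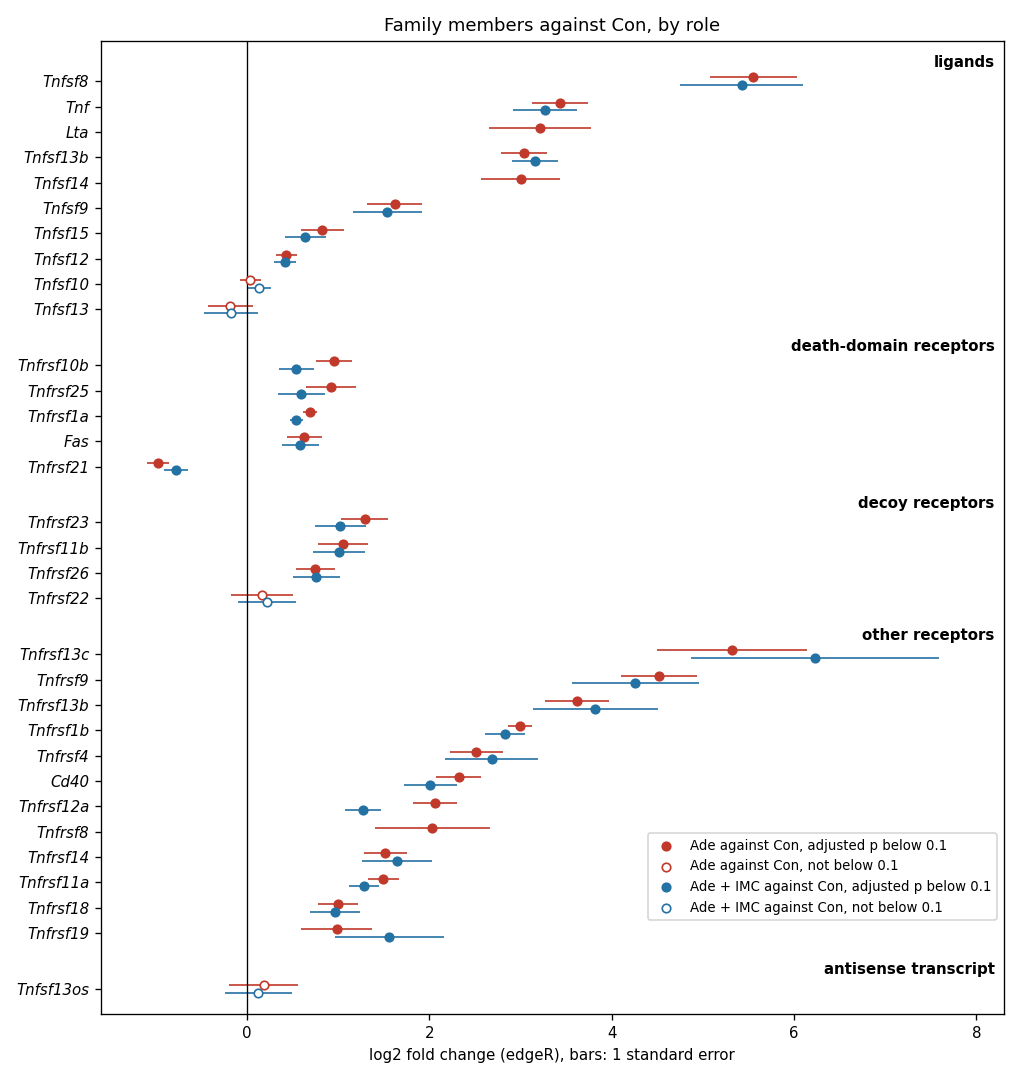
Log2 fold change of the members tested in Ade against Con (red) and Ade + IMC against Con (blue), ordered by role, with bars of 1 standard error. Filled points had an edgeR adjusted p below 0.1 and open points did not. Both comparisons use the same 5 Con mice. Only Tnfrsf21 lies to the left of 0 with a filled point, at -0.97 and -0.78.

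The genes around the family were described from lists chosen with earlier results of these data known, and their counts are to be read beside the 35.1% of all genes tested that were called higher and the 32.2% called lower. Of 10 family genes named otherwise, 8 were tested and 6 called higher in Ade, with 0 lower. Ltb, lymphotoxin beta, went from a median of 0.909 CPM in Con to 20.1 CPM in Ade (log2 fold change 4.35), Relt from 0.404 to 6.95 CPM (3.68), and the p53 target Eda2r from 1.61 to 4.57 CPM (1.98). The Con medians of Ltb and Relt were below the 1.3 CPM that the filter asks for, so they entered the test through their Ade reads. How the other genes of this list entered was not counted. Ltbr, the receptor of lymphotoxin beta and LIGHT, had a log2 fold change of 0.17 and was called, while Eda and Edar were not called. Fasl, the ligand of Fas, was too low to test, at 0 to 0.131 CPM in Con and 0.374 to 2.0 CPM in Ade.

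Of 26 signalling genes downstream of the receptors, 16 were called higher and 6 lower, beside 35.1% and 32.2% of all genes tested. Traf1, an adaptor that NF-κB induces, had a log2 fold change of 3.03, the inhibitor of apoptosis gene Birc3 one of 2.2, and the noncanonical NF-κB kinase gene Map3k14 one of 1.12. Cflar, the inhibitor of caspase-8, was at -0.31 and Tab3 at -0.51, both called lower. Of 5 sheddase genes, 4 were called higher, among them Adam17, the protease that releases TNF from the membrane, with a log2 fold change of 0.67. Mmp7 had no read in any Con mouse and 13.4 to 60.3 CPM in Ade, so that it entered the test only through its Ade reads. Of 20 TNF-inducible genes, 19 were tested, of which 17 were called higher and 2 lower. The NF-κB brake Tnfaip3 rose from a median of 10.6 to 44.5 CPM (log2 fold change 1.95) and the adhesion gene Vcam1 from 21.9 to 362 CPM (3.97). The genes called lower were Sod2, the mitochondrial superoxide dismutase, at -1.12 and Tnfaip8 at -1.31.

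The Ade + IMC mice were also set against the Con mice, which both comparisons share. In edgeR's quasi-likelihood test over 14578 genes, 29 members were tested, 24 were called higher, where 30.9% of all genes tested were, and Tnfrsf21 alone was called lower, where 32.3% were. Of the 29, 12 entered the test through their Ade + IMC reads, and of the other 17, 14 were called higher and 1 lower, where 26.5% and 36.0% of the genes that the Con mice carried alone were. Lta, Tnfrsf8 and Tnfsf14 did not pass the filter here, beside the 5 members that were not tested in Ade, since fewer than 5 mice reached its level of 1.24 CPM. Mouse 311 held 65 of the 119 Lta reads and 80 of the 112 Tnfrsf8 reads of the Ade + IMC group. Over the 37 members the groups did not overlap in 15 upward and 1 downward, and among the 29 tested in 13 and 1, against 20.5% and 16.4% of all genes tested. Among the 13, Tnf, Tnfrsf4, Tnfrsf9, Tnfrsf13b, Tnfrsf13c, Tnfsf8 and Tnfsf13b entered the test through their Ade + IMC reads. The log2 fold changes, with standard errors, were 3.27 ± 0.35 for Tnf, 2.83 ± 0.22 for Tnfrsf1b, 1.27 ± 0.20 for Tnfrsf12a, 0.54 ± 0.07 for Tnfrsf1a and -0.78 ± 0.13 for Tnfrsf21. Each of these was called. Mouse 311 carried part of the rise of Tnfrsf13b: without it the log2 fold change of Tnfrsf13b went from 3.82 to 2.88. Tnfrsf13c fell below the filter on low counts when any Ade + IMC mouse other than 410 was left out. Tnfrsf25 (0.60, edgeR adjusted p = 0.0591) lost its call without mouse 311 (adjusted p = 0.107), without mouse 301 (0.120) and without mouse 302 (0.143).

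The direct comparison of Ade + IMC with Ade found no member that passed the test. Limma on log2(normalized count + 1) tested 33 members among 14696 genes and called 0 members and 0.0% of all genes at an adjusted p-value below 0.1. At an unadjusted p-value below 0.05, 2 members were lower and 0 higher, where 3.35% of all genes were lower and 3.37% higher. Without adjustment, 493 genes were lower and 495 higher. By edgeR on the recovered reads 0 members and 0 genes were called, and DESeq2 called 0 members but 21 genes higher and 16 lower. No member's groups were separate, where 0.129% of all genes lay wholly higher and 0.0953% wholly lower. Of the 33 members tested, 22 had a negative and 11 a positive difference, and the median difference was -0.11 on the log2 scale over the members and 0.01 over all genes tested. That lean varied with the tool and with the mice included. By edgeR 15 of 33 were positive with a median of -0.020, by DESeq2 18 of the 37 it tested with a median of -0.0033, and the limma median was -0.26 without mouse 311 and -0.025 without mouse 412.

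Of the 33 members tested, Tnfrsf12a (Fn14) had the most negative difference by limma on all 12 mice. Ade + IMC mice had 15.6 to 35.9 CPM with a median of 25.1, where the Ade mice had 23.8 to 62.0 with a median of 44.1 and the Con mice 9.67 to 11.3. The groups overlapped, with 3 of the 6 Ade + IMC mice below the lowest Ade mouse. The difference was -0.72 on the log2 scale (95% interval -1.28 to -0.16), with an unadjusted p of 0.0155 and an adjusted p of 0.711 in limma. An exact permutation test over the 12 mice, two-sided, gave p = 0.0390, and permuting only among mice that share the first digit of their number gave a difference of -0.80 and an exact p = 0.0111. Within first digits Tnfrsf8 had a more negative difference, -0.94 (exact permutation p = 0.306). The labels do not say what that digit marks. Mouse 311 had the lowest value, and without it the difference was -0.59 (95% interval -1.13 to -0.04), less negative than that of Tnfrsf9 at -0.81. Every Ade + IMC mouse remained above every Con mouse. The injured tubule markers summed to 291 to 785 CPM in Ade + IMC and to 370 CPM in mouse 311, with a median difference from Ade of -0.97 on the log2 scale over the 4 genes and 0 called, and their part in this difference was not tested either.

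Tnfrsf10b, the TRAIL receptor, was the other member at an unadjusted p below 0.05. The Ade + IMC values were 5.11 to 8.37 CPM with a median of 5.57, beside 5.95 to 10.9 CPM with a median of 7.30 in Ade and 3.38 to 5.49 CPM in Con. Of the Ade + IMC mice 5 of 6 lay below the lowest Ade mouse, and mouse 212 lay among the Ade mice. The difference was -0.36 on the log2 scale (95% interval -0.71 to -0.00), with an unadjusted p of 0.0478 and an adjusted p of 0.735 in limma. The exact permutation test gave p = 0.0476, and 0.0111 within first digits. Within first digits the exact permutation test also gave p = 0.0167 for Tnfsf14 and p = 0.0278 for Cd40. The exact tests were run on all 37 members without correction.

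For the other members the intervals say how large a difference the data could have missed. For Tnf the Ade + IMC values were 3.37 to 9.57 CPM with a median of 5.83, and the difference was -0.17 (95% interval -0.79 to 0.45). For Tnfrsf1a it was -0.11 (-0.28 to 0.05), with 123 to 147 CPM in Ade + IMC, and for Tnfrsf1b -0.18 (-0.59 to 0.23), with 45.1 to 114 CPM. Tnfrsf21 was at 0.23 (-0.08 to 0.53), with 191 to 342 CPM. The intervals were narrow for the abundant members, as for Tnfsf10 (0.13, -0.05 to 0.31) and Tnfsf12 (0.03, -0.20 to 0.26). They were wide for the lymphocyte genes, as for Tnfrsf13c (0.03, -1.62 to 1.69), Tnfrsf8 (-0.62, -2.30 to 1.06) and Lta (-0.33, -1.55 to 0.89), for which no difference was detectable at this depth and spread. By edgeR these were 0.90, 0.33 and 0.15, so that the sign of Tnfrsf8 and Lta turned. Fas was at -0.02 (-0.38 to 0.34), Cd40 at -0.32 (-0.91 to 0.27), Tnfsf13b at 0.16 (-0.29 to 0.60) and Tnfsf14 at -0.56 (-1.17 to 0.05).

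**Figure D3:**
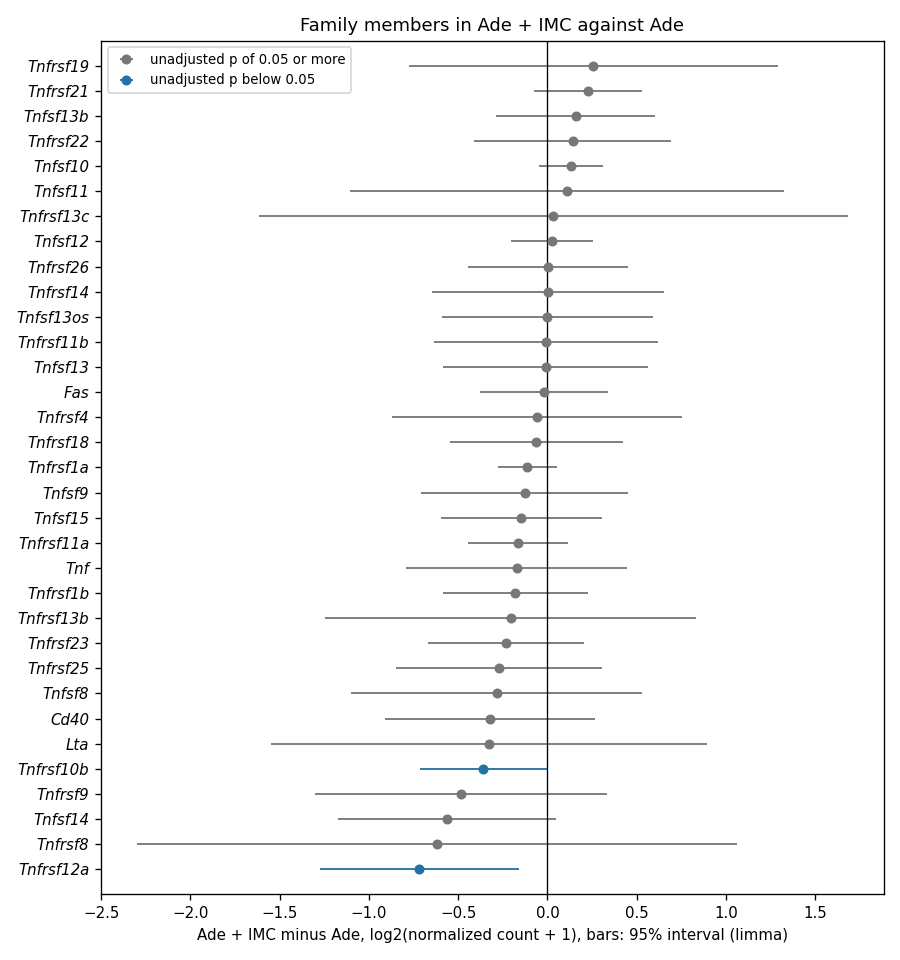
Difference between Ade + IMC and Ade on the log2(normalized count + 1) scale for the 33 members tested, with 95% intervals from limma. Tnfrsf12a and Tnfrsf10b, in blue, are the members whose interval lies below 0. The widest intervals belong to Tnfrsf8 and Tnfrsf13c.

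The spread within the adenine-fed groups was itself uneven across the family. Of the 33 members tested in any comparison, mouse 311 had the highest value of the Ade + IMC group in 17 and the lowest in 5 (Tnfrsf12a, Tnfrsf21, Tnfrsf23, Tnfsf12 and Tnfsf13os). Mouse 412 had the lowest in 14. In the Ade group mouse 308 was highest in 15 and mouse 407 lowest in 14. The members with the highest value in mouse 311 included Tnfrsf13c at 28.8 CPM (0.573 to 5.38 in the other Ade + IMC mice), Tnfrsf13b at 51.0 CPM (5.28 to 12.9) and Tnfsf8 at 29.4 CPM (5.28 to 13). For Tnf, mouse 212 had the highest value of the Ade + IMC group, 9.57 CPM, and mouse 311 had 8.05 CPM. In the Ade group mouse 308 had the highest Tnf value, 8.85 CPM. The B cell and T cell marker sums were highest in the same mice, 311 and 308. Plasma cell markers summed to 2956 CPM in mouse 311 (297 to 710 in the other Ade + IMC mice). Markers of lymph node vessels and follicles summed to 63.7 CPM in mouse 311 (5.53 to 13 in the others) and to 35.6 CPM in mouse 308 (4.89 to 17.9 in the other Ade mice). The part of these cells in the members' values was not tested.

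Leaving out mouse 311 moved the count of members at an unadjusted p below 0.05 between Ade + IMC and Ade more than leaving out any other mouse. Without it 0 members were called, and at an unadjusted limma p below 0.05 there were 7 members lower (Cd40, Tnfrsf12a, Tnfrsf13b, Tnfrsf1b, Tnfrsf9, Tnfsf14 and Tnfsf8) and 1 higher (Tnfrsf21), where 5.25% of all genes were lower and 5.57% higher. Tnfrsf9 then had a difference of -0.81 (95% interval -1.42 to -0.21) and Tnfrsf1b one of -0.33 (-0.65 to -0.01), with adjusted p-values of 0.448 and 0.456. Tnfrsf10b was not among the 7.

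**Figure D4:**
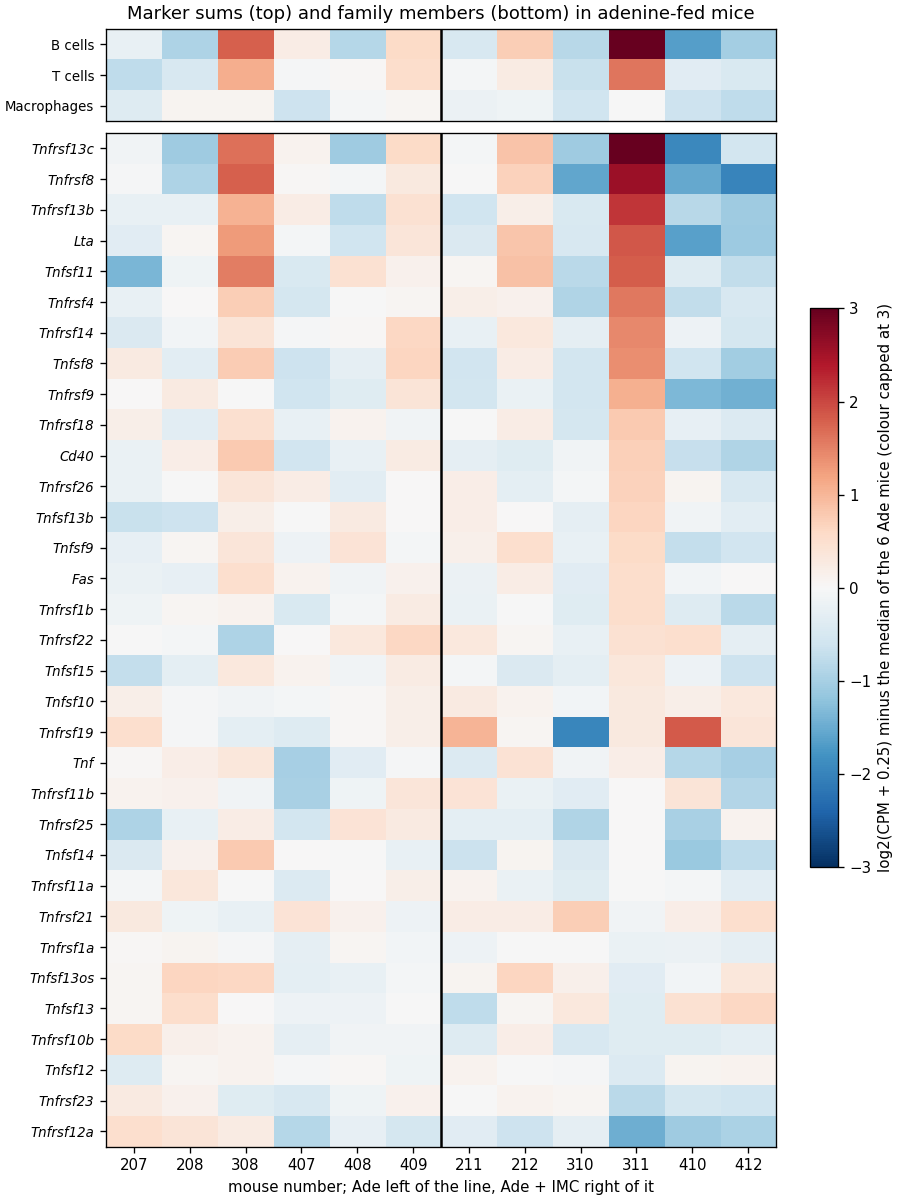
Heat map of the 12 adenine-fed mice, with summed B cell, T cell and macrophage markers on top and 33 members below, as log2(CPM + 0.25) minus the median of the 6 Ade mice and with colours capped at 3. Members are ordered by their value in mouse 311, which is highest for Tnfrsf13c and lowest for Tnfrsf12a. Mice 308 and 311 are red in the B and T cell sums and in the members at the top.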

How the data were processed

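Kidney RNA-seq of 17 mice was analysed, and the 4 Con + IMC mice in the labels were not analysed here. The deposited raw counts cover the Con and Ade mice. The deposited signal of the Ade and Ade + IMC mice is the count divided by a size factor, and whole reads were recovered from it (100% of values within 1e-06, with 0 differing from the raw counts in Ade). The authors' own table of fold changes and p-values was used for gene names only. The submitters' processing notes list Trimmomatic 0.39, Bowtie2 2.2.5 and HTSeq 0.9.1, whereas the paper names STAR on mm10. Annotation release and strand use are not given in the sources used here.

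Ade and Ade + IMC were each compared with Con by edgeR 4.0.16 (quasi-likelihood test, TMM, its own low-count filter, R 4.3.3). Ade + IMC was compared with Ade by limma 3.58.1, with its trend option, on log2(normalized count + 1) for genes with a mean of at least 10. This log scale understates changes of low genes. Calls used an adjusted p below 0.1 over all genes tested. CPM used TMM scaling over the 17 mice. Intervals of read ratios are exact 95% binomial intervals and cover counting error only. The fits were tested on simulated data. Alternatives were DESeq2 1.42.0, other scalings, filters, pseudocounts and thresholds, a block on the first digit of the mouse number, and each mouse left out. Coordinates are those of GRCm38 (GENCODE M21).

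For the best known members, the largest changes and members with an unadjusted p below 0.05 in limma, Con values are given by mouse and the groups of 6 by their range, mostly with the median. The others are given by range or count. Members and lists were chosen with earlier results of these data known. Libraries of a group differed by more than sampling noise (chi-square over degrees of freedom from 4.21).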

Additional observations from a re-analysis of the deposited data

Results flagged for a closer look

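In 99 sets of values (33 members in 3 groups), 17 held a mouse whose gap to its neighbour was large against the range of its group (Dixon's criterion), where chance gives about 1 in 20, or 4.95. All values are in CPM, with the range of the other mice of the group in parentheses.

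Mouse 311 of the Ade + IMC group accounted for 9 of the 17. It was high for Tnfrsf13b at 51.0 (5.28 to 12.9) and Tnfrsf13c at 28.8 (0.573 to 5.38), which encode receptors of BAFF. It was also high for Cd40 at 23.9 (7.62 to 13.3), Tnfsf8 at 29.4 (5.28 to 13) and its receptor Tnfrsf8 at 9.07 (0.147 to 2.27). Tnfrsf4 at 16.8 (2.76 to 6.13), Tnfrsf9 at 9.52 (1.47 to 3.83) and Tnfrsf14 at 17.3 (4.25 to 7.77) were high too, whereas Tnfsf12 was low at 24.9 (32.3 to 35.9).

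Mouse 308 of the Ade group accounted for 4, all high: Lta at 4.85 (1.12 to 2.45), Tnfrsf4 at 9.19 (3.65 to 5.68), Tnfrsf8 at 5.18 (0.568 to 1.68) and Tnfsf14 at 3.84 (1.53 to 2.39). The B cell marker sums of mice 311 and 308 were 453 and 196 CPM, and their part in these values was not tested.

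The other 4 fell on different mice. Tnfrsf10b was at 8.37 in mouse 212 of the Ade + IMC group (5.11 to 5.86), and Tnfsf13 at 2.73 in mouse 208 of the Ade group (1.62 to 1.91). In Con, Tnfrsf11a was at 8.78 in mouse 201 (5.01 to 5.78), and Tnfsf11 at 0.260, from 2 reads, in mouse 302 (0 in the others).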

How the results depend on the processing

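Counts of members called in Ade and in Ade + IMC against Con stayed within 1.5 times the reported counts under every alternative. DESeq2 and the fit without a filter tested all 37 members. Leaving out 1 mouse gave 24 to 28 members higher in Ade and 21 to 26 in Ade + IMC. The calls lost in Ade when a mouse was left out (Lta, Tnfrsf8, Tnfrsf11b) were of members then too low to be tested, and Tnfrsf19 lost its call in the fit over all 3 groups. For Tnfsf10 the log2 fold change in Ade ranged from -0.058, without mouse 403, to 0.11 over the mice left out.

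Between Ade + IMC and Ade, 0 members were called by any tool, scaling, pseudocount or omission at adjusted p below 0.1, and 2, both lower, at unadjusted p below 0.05. Members lower at that p numbered 1 by DESeq2 and 1 without a filter. Leaving out 1 mouse gave 1 to 7 lower and 0 to 2 higher. The replicate block on the first digit of the mouse number gave 4 lower by limma (Cd40, Tnfrsf10b, Tnfrsf12a and Tnfsf14) and 4 by edgeR, where 6.26% and 6.67% of all genes were, and called 0 members. In that limma fit 0.497% of all genes were called higher and 0.408% lower. Mice of different groups with the same digit had a median correlation of deviations of 0.0511, against -0.0172 for other pairs, and the labels do not say what it marks, so it served only for this block and for the exact tests within digits. Under the block 7 of 33 members had a positive difference by limma (median -0.20) and 8 by edgeR (median -0.14). The block changed no other call of a member.

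Between Ade + IMC and Ade, 6 of 33 members had the other sign by edgeR and 7 by DESeq2, 0 of them outside the limma interval. By DESeq2 and edgeR respectively Lta turned to 0.13 and 0.15, Tnfrsf8 to 0.26 and 0.33, Tnfrsf13b to 0.21 and 0.21, and Tnfrsf4 to 0.19 and 0.18. Tnfrsf13c, reported at 0.03, turned to -0.30 under the block in limma and was 0.90 by edgeR and 0.88 by DESeq2. Over the mice left out, Fas ranged from -0.13 to 0.079, Tnfrsf13c from -0.61 to 0.46 and Tnfrsf4 from -0.39 to 0.12. The cause was not tested. Depth limits the members below 1 CPM.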
